A study of Mus musculus with 10 samples.

Results

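The genes described here encode the molecules that display peptides to T cells. They are the major histocompatibility complex (MHC) class I and class II genes of the mouse, called H2 genes, and the machinery that loads them. They were measured in heart tissue of mice lacking homeodomain interacting protein kinase 2 (HIPK2). The genes were chosen by name: every probe on the array whose gene name began with H2-, together with every probe named for 1 of 14 listed genes of antigen presentation. Of these 14, Psme2 matched no probe. The rule found 92 of the 56605 probes, which carried 55 of the 37074 gene or transcript names on the array. Class I held 68 of these probes and class II held 22. The remaining 2 probes were for H2-Ke6, a gene named only for its place in the MHC region, and it was counted in neither class.

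Cardiac tissue from male mice was compared between HIPK2 knockout and wild-type mice by the labels, with 5 samples of each genotype and a separate 1-colour Agilent array for every sample. The knockout was made by CRISPR in C57BL/6 embryos. It removed 56 bases of the second exon of Hipk2, shifted the reading frame, and was bred onward with C57BL/6 wild-type mice. The deletion is in the germ line and so is not limited to 1 cell type. No treatment or age was given in the sources used here, and the control is wild-type heart tissue of the same sex. Nothing in the labels ties a sample to a mouse of its own, and the spread behind every p-value may be technical.

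Class I molecules are made by nearly all nucleated cells. A polymorphic heavy chain (H2-K1 and H2-D1 in this strain) pairs with beta-2 microglobulin (B2m) and carries a peptide cut by the proteasome and pumped into the endoplasmic reticulum by the transporter Tap1 and Tap2. Class II molecules, built from the H2-A and H2-E chains with the invariant chain Cd74, are made mainly by dendritic cells, macrophages and B cells, which in the heart form a small resident population. NLRC5 is the transactivator of class I genes and CIITA that of class II genes. Both act through a shared set of promoter elements, and interferon-gamma raises both.

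Promoter motifs of these types are shown for 5 genes as background to class I and class II. They were not compared with the knockout differences below. Of the 40 genes measured, 26 had a promoter in the RefSeq table of build GRCm38.p6, each running from 250 bases before the start site to 50 after it. Motifs were searched on both strands, and capitals mark them. They are GAANNGAAA, an interferon regulatory factor type element, TGACG, a cyclic AMP response element type site, GATTGG, the reversed CCAAT box, and an X-box type pair, the longest stretch of capitals in H2-Eb1. The motifs did not overlap each other in these windows, apart from TGACG meeting its own reverse complement in H2-Aa. Each window below lies upstream of the start site and is written 5′ to 3′ on the gene's strand.
H2-K1, chr17:34000374-34000449, minus strand: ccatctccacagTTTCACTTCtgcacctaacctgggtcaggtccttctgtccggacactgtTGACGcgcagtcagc
H2-D1, chr17:35262932-35263056, plus strand: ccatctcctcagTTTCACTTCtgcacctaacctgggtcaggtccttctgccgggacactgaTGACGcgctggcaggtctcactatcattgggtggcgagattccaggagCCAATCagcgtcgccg
B2m, chr2:122147597-122147648, plus strand: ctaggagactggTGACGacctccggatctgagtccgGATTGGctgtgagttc
H2-Aa, chr17:34287857-34287909, minus strand: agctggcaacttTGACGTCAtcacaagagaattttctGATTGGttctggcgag
H2-Eb1, chr17:34305764-34305847, plus strand: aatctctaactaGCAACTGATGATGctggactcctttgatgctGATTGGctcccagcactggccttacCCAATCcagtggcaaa

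The interferon regulatory factor type element was found in 7 of 12 heavy-chain promoters and in 0 of 5 class II promoters, beside 7.52% of the 32851 promoters in the table. TGACG was found in 7 of 12 heavy-chain promoters and 1 of 5 class II promoters (all promoters: 20.8%). In the machinery it was found in 3 of 8 promoters, those of B2m and of the facing genes Psmb9 and Tap1. GATTGG was found in 4 of 5 class II promoters and 7 of 12 heavy-chain promoters (all promoters: 16.1%). These counts cover the whole promoter, and the GATTGG match of H2-K1 lies outside its printed window. The X-box type pair was found in 3 of 5 class II promoters, those of H2-Eb1, H2-DMb1 and H2-Ob, and in 0 of 12 heavy-chain promoters (all promoters: 0.0517%). These matches describe letters in the windows and are no measure of binding.

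Signal on these arrays is given as log2 of the spot signal relative to the 75th percentile of its own array, so that 0 is the level of that percentile and a difference of 1 is a doubling. That percentile was 286 to 460 on knockout arrays and 462 to 542 on wild-type arrays, and 45.8% to 58.3% and 55.7% to 60.4% of spots were well above background. The 3 probes for Hipk2 itself did not separate the genotypes. Its brightest probe read 1.50, 1.88, 1.78, 1.30 and 1.42 in knockout replicates 1 to 5 and 1.31, 1.97, 1.68, 1.55 and 1.18 in wild-type replicates 1 to 5, and the genotype therefore rests on the labels. Wild-type replicates 1 and 2 lay on slide 1 and the other 8 arrays on slide 2, where knockout replicate 1 shared a row with the 3 wild-type arrays. Markers of the atrium (3 genes) and of fat (4 genes) differed widely between samples: the mean atrial level ran from -2.75 to 1.56 in knockout and from -3.02 to 4.81 in wild type, and the mean fat level from -5.04 to -2.96 and from -4.17 to 0.29. In limma 0 of these 7 genes passed the test, with 1 atrial and 3 fat genes at an unadjusted p under 0.05, where 27.2% of all genes were. Defining cardiomyocyte genes were high in all samples, with a mean level over 8 genes of 8.25 to 8.73 in knockout and 7.77 to 8.30 in wild type. The part of tissue make-up, slide and row in the results below was not tested beyond the values given. In tissue RNA, fewer cells of a type and less RNA per cell cannot be told apart.

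Of the 55 gene names, 40 were measured, meaning that in at least 1 genotype 4 or more of its 5 arrays put a probe well above background. These were 31 of 42 class I genes (21 of 32 heavy chains and 10 of 10 partners and machinery genes), 8 of 12 class II genes, and H2-Ke6. The 15 others were H2-M1, H2-M5, H2-M9, H2-M10.1 to H2-M10.6, H2-Q1 and H2-T18 in class I, and H2-DMb2, H2-Oa, H2-Eb2 and H2-Ea-ps in class II. Of these, 10 were above background on no array. H2-Ea-ps, the E alpha chain, is a pseudogene in the C57BL/6 reference, and its probe was above background on none of the 10 arrays. Knockout and wild-type values of 0 of the 40 genes differed past the threshold (limma, Benjamini-Hochberg adjusted p under 0.05 over 20607 genes), where 4.94% of all genes did, 405 genes (1.97%) higher and 612 (2.97%) lower in knockout. At an unadjusted p under 0.05 there were 3 of 40 genes, against 27.2% of all genes. The genotypes were separated without overlap for 0 of 40 genes, against 8.98% of all genes.

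Most class I values were slightly lower in knockout. The log2 difference, knockout minus wild type, was below 0 for 25 of 31 class I genes and for 5 of 8 class II genes, beside 45.9% of all genes. Its median was -0.14 over class I, -0.11 over class II and 0.03 over all genes. Among the 8 arrays of slide 2, the class medians were -0.20 and -0.20. The precision is limited by 5 arrays per genotype: the 95% interval of the difference lay within a 1.5-fold change either way for 24 of 31 class I genes and 6 of 8 class II genes. It reached beyond a 2-fold change for Nlrc5 and Tap2 and for no other of the 40 genes.

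**Figure D1:**
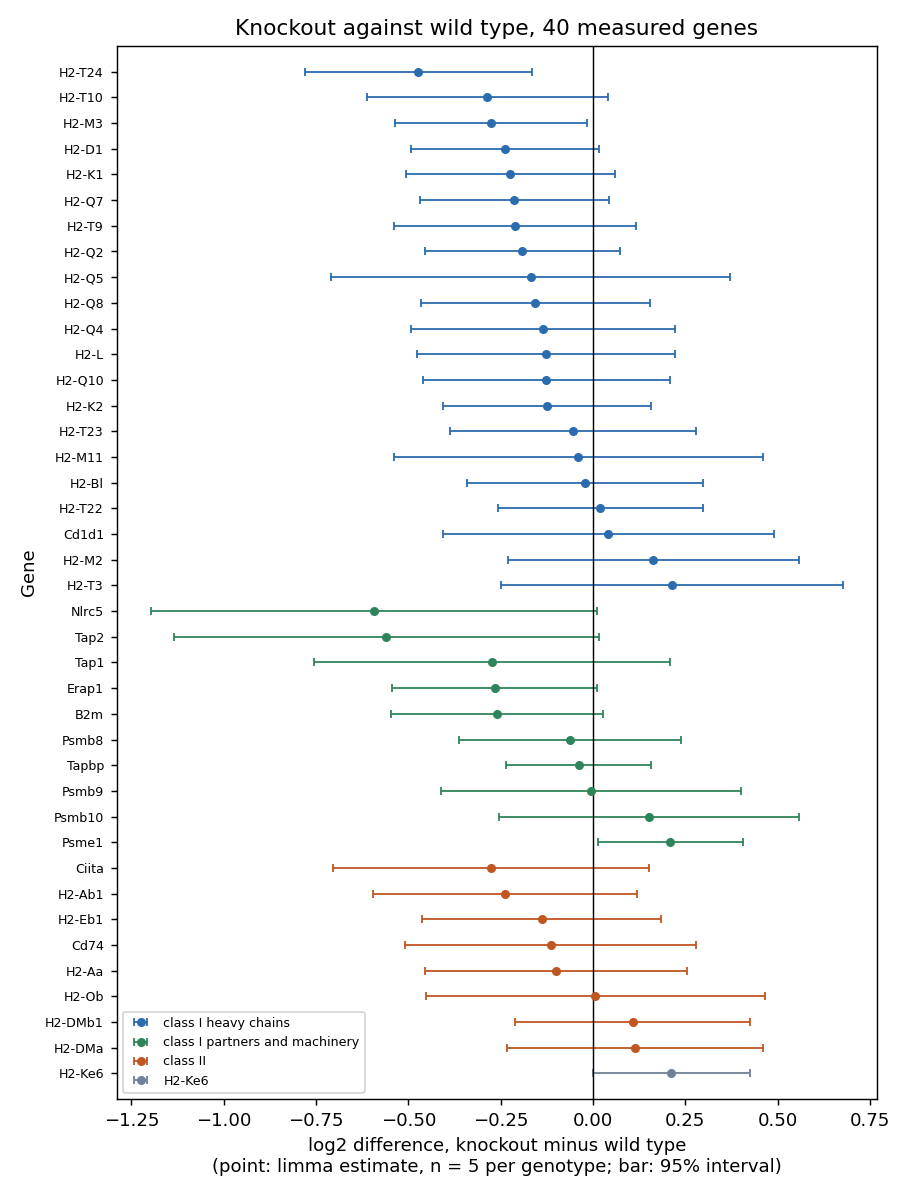
Log2 difference in signal, knockout minus wild type (horizontal axis), for each of the 40 measured genes (vertical axis), coloured by class; points are limma estimates from 5 samples per genotype and bars are 95% intervals. Class I points lie mostly left of 0, down to -0.59 for Nlrc5, and the intervals of most genes include 0.

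The classical class I heavy chains H2-K1 and H2-D1 present peptides to CD8 T cells. H2-K1 (probe at chr17:34133055-34133114, mm9) read 4.84, 5.02, 4.65, 4.72 and 4.81 in knockout replicates 1 to 5 and 4.66, 5.32, 5.10, 5.18 and 4.89 in wild type. All 5 knockout samples lay below the wild-type median, but wild-type replicate 1 was as low as the lowest knockout samples, so the groups overlapped. The difference was -0.22 ± 0.13 (SE), with a 95% interval of -0.51 to 0.06 and an adjusted p of 0.281 in limma. H2-D1 (chr17:35403886-35403945, mm9) read 4.05, 4.41, 4.10, 4.16 and 4.29 in knockout and 4.18, 4.54, 4.71, 4.48 and 4.30 in wild type. Here too all 5 knockout samples lay below the wild-type median, and wild-type replicates 1 and 5 fell inside the knockout range. The H2-D1 difference was -0.24 ± 0.12, with an interval of -0.49 to 0.02 and a limma adjusted p of 0.209. A further classical name, H2-L, gave -0.13 ± 0.16. The H2-L probe (chr17:35403191-35403250, mm9) sits 635 bases before the H2-D1 probe, and C57BL/6 mice carry no separate L gene, so its signal cannot be assigned to a chain of its own.

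Among the 21 heavy chains, 17 had differences below 0, from -0.47 for H2-T24 to 0.21 for H2-T3, a thymus leukaemia antigen gene. H2-T24, a non-classical gene, read -2.68, -2.85, -2.52, -2.93 and -2.76 in knockout and -2.52, -2.11, -2.04, -2.64 and -2.06 in wild type. Wild-type replicate 4 fell inside the knockout range, and replicate 1 lay just above it. Its difference of -0.47 ± 0.14 had the smallest adjusted p of the 40 genes, 0.0713 in limma. That value passed the threshold after quantile normalization (-0.52, adjusted p = 0.0417) and in the authors' deposited value table (-0.52, adjusted p = 0.0418), and shrank to -0.11 (adjusted p = 0.516) with normexp background correction. The second kept probe of H2-T24, above background on 2 knockout and 5 wild-type arrays, differed by only -0.13 ± 0.24, and by 0.24 with normexp. H2-M3 presents peptides that begin with N-formyl methionine, and differed by -0.28 ± 0.12 (adjusted p = 0.162). The Qa-type genes H2-Q2, H2-Q7 and H2-Q8 differed by -0.19, -0.21 and -0.16, with all 5 knockout samples below the wild-type median for each. Cd1d1, which presents lipids to natural killer T cells and lies outside the MHC on chromosome 3, differed by 0.04 ± 0.20. Its knockout values spread from -1.98 to -0.68, while its wild-type values stayed between -1.49 and -1.38.

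All 5 knockout samples lay below the wild-type median for 14 of 31 class I genes, and all 5 above it for 1, Psme1. In class II this was so for 0 of 8 genes in either direction. Over all genes the shares were 17% below and 19.4% above.

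B2m, the light chain common to all class I molecules, read 5.06, 5.25, 5.06, 4.93 and 4.98 in knockout and 4.85, 5.35, 5.48, 5.53 and 5.38 in wild type (chr2:121978401-121978460, mm9). Wild-type replicates 2 to 5 all lay above the 5 knockout samples, and wild-type replicate 1 lay below them. The B2m difference was -0.26 ± 0.13, with an interval of -0.55 to 0.03 and a limma adjusted p of 0.221. Without wild-type replicate 1 it was -0.38.

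The peptide transporter gave wider intervals. Tap1 read -0.13, 0.24, 0.03, -0.31 and 0.02 in knockout and -0.50, 0.40, 0.90, 0.27 and 0.14 in wild type. The wild-type samples spanned the highest and the lowest value of the 10. The Tap1 difference was -0.27 ± 0.22 (interval -0.76 to 0.21, limma adjusted p = 0.440). Tap2, its partner subunit, read 1.26, 1.66, 1.37, 1.38 and 1.50 in knockout and 1.50, 2.70, 2.67, 1.67 and 1.42 in wild type. Wild-type replicates 2 and 3 lay about 1 log2 unit above the other wild-type samples, and the difference was -0.56 ± 0.26 (adjusted p = 0.194). Tapasin (Tapbp), which bridges the transporter and the heavy chain, differed by -0.04 ± 0.09. Erap1, the aminopeptidase that trims peptides in the endoplasmic reticulum, differed by -0.27 ± 0.13 (adjusted p = 0.200).

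The immunoproteasome subunits, which interferon exchanges for the constitutive ones, had differences near 0. Psmb8 read 1.17, 1.44, 1.50, 1.28 and 1.28 in knockout and 0.96, 1.42, 1.72, 1.56 and 1.33 in wild type. Knockout values lay inside the wild-type range, and the difference was -0.06 ± 0.14 with an interval of -0.36 to 0.24. Without wild-type replicate 3 its sign turned, to 0.02. Psmb9 differed by -0.01 ± 0.18 and Psmb10 by 0.15 ± 0.18, so changes up to about 0.4 on the log2 scale in Psmb9 were not resolved. Psme1, a subunit of the PA28 activator of the proteasome, was the machinery gene with the largest positive value, 0.21 ± 0.09 (adjusted p = 0.162). It read 5.74, 5.74, 5.44, 5.78 and 5.59 in knockout and 5.58, 5.50, 5.41, 5.37 and 5.38 in wild type.

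Nlrc5, the class I transactivator, had the largest difference of the 40 genes in size. It read -2.13, -2.21, -2.44, -2.91 and -2.38 in knockout and -2.87, -1.47, -1.30, -1.59 and -1.87 in wild type (chr8:97051105-97051164, mm9). Wild-type replicates 2 to 5 all lay above every knockout sample, and wild-type replicate 1 lay near the lowest knockout sample. With all 10 samples the difference was -0.59 ± 0.27, with an interval of -1.20 to 0.01 and a limma adjusted p of 0.190. Without wild-type replicate 1 it was -0.86 ± 0.17 with an adjusted p of 0.0321, past the threshold. With normexp background correction and all samples it was -0.27 (adjusted p = 0.235). Its second kept probe, above background on 1 knockout and 5 wild-type arrays, differed by -0.16 ± 0.32.

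**Figure D2:**
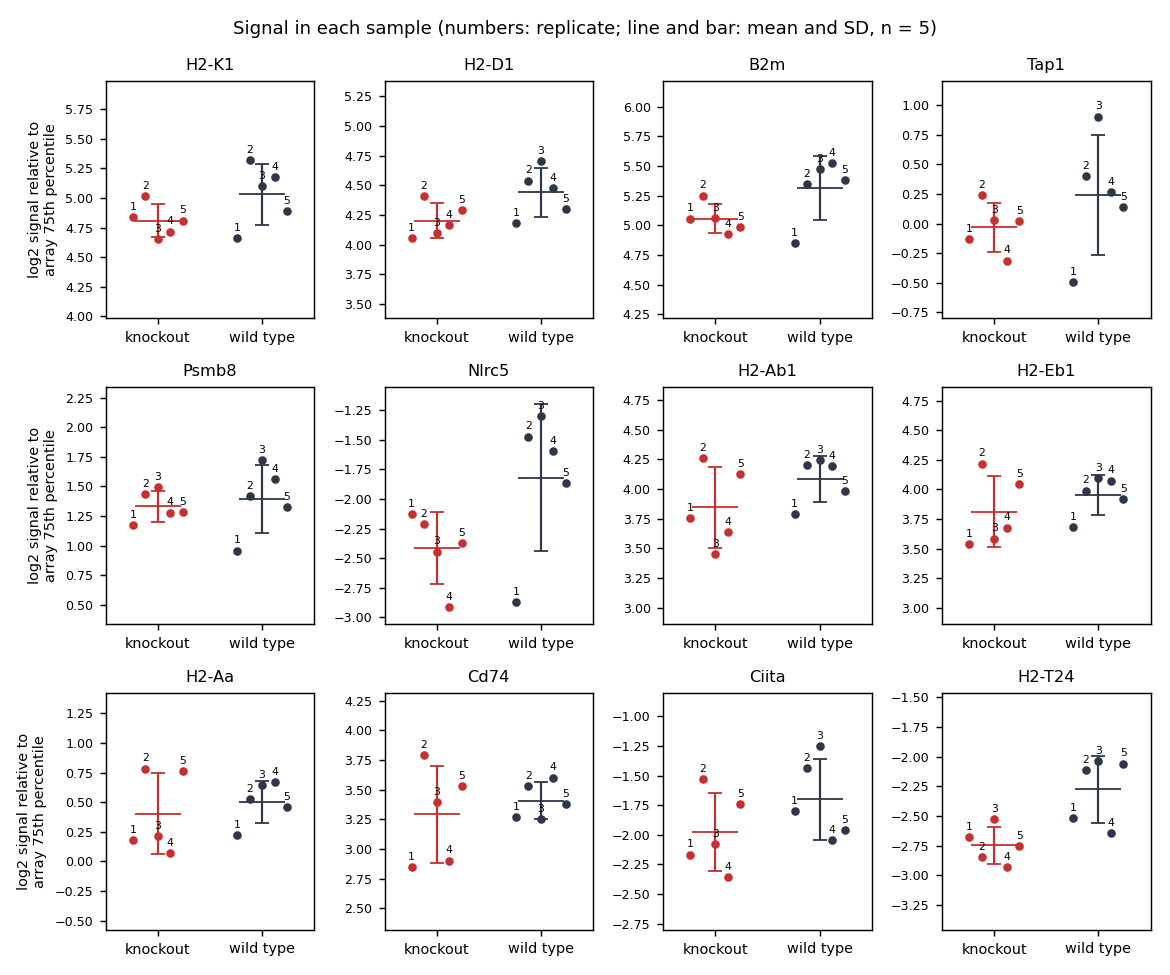
Log2 signal relative to the array's 75th percentile (vertical axis, each panel spanning 2 log2 units) for 12 genes in each knockout and wild-type sample; numbers are replicates, and lines and bars are the mean and SD of 5 samples. Wild-type replicate 1 is the lowest wild-type sample for H2-K1, H2-D1, B2m, Tap1, Psmb8 and Nlrc5, and knockout replicates 2 and 5 are the highest knockout samples for H2-Ab1, H2-Eb1, H2-Aa, Cd74 and Ciita.

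Among the class II chains, all 3 below had values below 0 and none passed the test. The H2-A beta chain H2-Ab1 (chr17:34406296-34406355, mm9) read 3.75, 4.26, 3.45, 3.64 and 4.13 in knockout and 3.79, 4.20, 4.25, 4.19 and 3.99 in wild type. Knockout replicates 2 and 5 were within the wild-type range or above it, and the other 3 lay below the lowest wild-type sample. The difference was -0.24 ± 0.16, with an interval of -0.60 to 0.12 and a limma adjusted p of 0.364. Its 3 further kept probes gave -0.17, -0.12 and -0.03. The H2-A alpha chain H2-Aa read 0.18, 0.78, 0.22, 0.07 and 0.76 in knockout and 0.22, 0.53, 0.64, 0.67 and 0.46 in wild type, a difference of -0.10 ± 0.16. The H2-E beta chain H2-Eb1 read 3.54, 4.22, 3.59, 3.68 and 4.05 in knockout and 3.68, 3.99, 4.10, 4.08 and 3.92 in wild type, a difference of -0.14 ± 0.15. In both genes knockout replicates 2 and 5 were again high and the groups overlapped.

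Cd74, which blocks the class II groove until the peptide is loaded, read 2.85, 3.79, 3.39, 2.90 and 3.53 in knockout and 3.27, 3.53, 3.26, 3.60 and 3.38 in wild type. Knockout samples fell on both sides of the narrow wild-type range, and the difference was -0.11 ± 0.18 with an interval of -0.51 to 0.28. H2-DMa and H2-DMb1, the chains of the peptide-exchange factor DM, differed by 0.11 ± 0.16 and 0.11 ± 0.14. H2-Ob, a chain of the DM inhibitor DO, was above background on 2 knockout and 5 wild-type arrays and differed by 0.01 ± 0.21. Ciita, the class II transactivator, read -2.17, -1.53, -2.08, -2.35 and -1.74 in knockout and -1.80, -1.44, -1.25, -2.05 and -1.96 in wild type. The groups overlapped, and the difference was -0.28 ± 0.19 (interval -0.70 to 0.15, limma adjusted p = 0.380). H2-Ke6, the gene in neither class, encodes a hydroxysteroid dehydrogenase and differed by 0.21 ± 0.10 (adjusted p = 0.185).

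Unequal change in class I and class II was tested only on 3 chosen pairs, 1 gene of each class, using the within-sample difference between the members of a pair. For the chains H2-K1 and H2-Ab1, the knockout effect differed by 0.01 ± 0.11 (SE; two-sided exact permutation p = 0.913). For B2m and Cd74 it differed by -0.15 ± 0.19 (exact permutation p = 0.444). For the transactivators Nlrc5 and Ciita it differed by -0.32 ± 0.29 (exact permutation p = 0.317). Adjusted over the 3 pairs by Benjamini-Hochberg, the exact permutation p-values were 0.913, 0.667 and 0.667, where 5 against 5 samples can reach 0.00794 at best. No difference between the members of these 3 pairs was resolved at this size, and with SEs of 0.11 to 0.29 a smaller one cannot be told from none. The classes as a whole were not compared in this way.

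Single samples held many of the extreme values. Wild-type replicate 1 held the lowest value of all 10 samples for 16 of 31 class I genes and 2 of 8 class II genes (12.3% of all genes). It lay below the gene's mean for 25 of 31 and 7 of 8 (52.1% of all genes). Wild-type replicate 3 held the highest value for 16 of 31 class I and 2 of 8 class II genes (9.24% of all genes). Knockout replicate 2 held the highest value for 2 of 31 class I and 4 of 8 class II genes (4.81% of all genes). Whether the classes differ in these counts was not tested. The SD was larger among wild-type than among knockout samples for 23 of 31 class I genes, and for 17 of 31 without wild-type replicate 1. It was larger among knockout samples for 6 of 8 class II genes. Over all genes the knockout SD was the larger for 58.6%. The median SD of the class I genes was 0.15 in knockout and 0.29 in wild type, and 0.18 in wild type without replicate 1. Of the class II genes it was 0.33 in knockout and 0.20 in wild type. The SDs themselves were not tested.

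**Figure D3:**
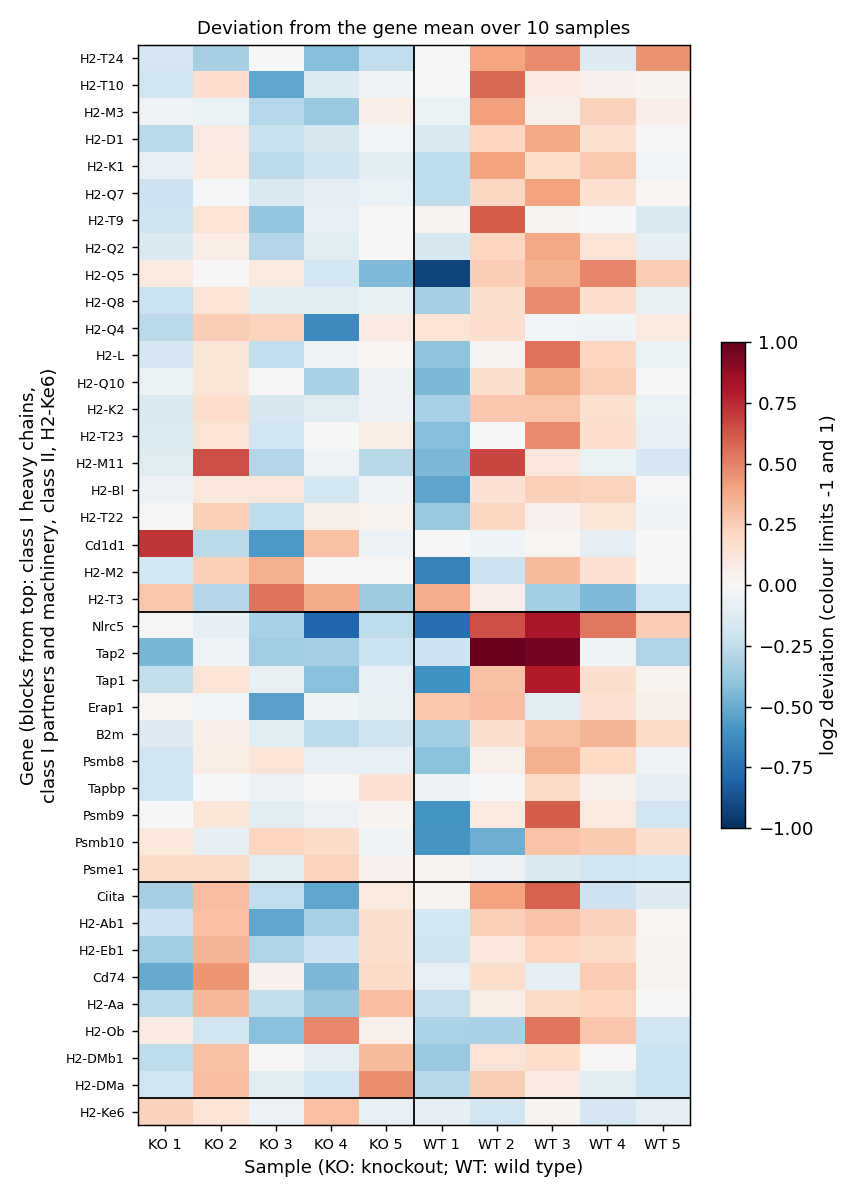
Log2 deviation of each of the 40 genes (rows) from its mean over 10 samples (columns, 5 knockout and 5 wild type), red above and blue below the mean. Wild-type replicate 1 is blue for 25 of 31 class I genes and 7 of 8 class II genes, and knockout replicates 1, 3 and 4 are mostly blue in class II while knockout replicates 2 and 5 are mostly red.

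For 7 pairs of genes the sample-to-sample variation was compared, and 6 of them had an adjusted permutation p under 0.05 for Pearson's r. No share over other gene pairs was computed, so this count cannot show a link particular to these genes. Across the 10 samples H2-Ab1 and H2-Eb1 had a Pearson r of 0.932 (permutation p = 0.00031) and a Spearman rho of 0.927 (permutation p = 0.00032). H2-K1 and Nlrc5 had an r of 0.870 (permutation p = 0.00138) and a rho of 0.879 (permutation p = 0.0016). H2-K1 and H2-Ab1, 1 gene of each class, had an r of 0.811 (permutation p = 0.00577) and a rho of 0.806 (permutation p = 0.00759). That r was close to those of H2-K1 with H2-D1 (0.834) and with B2m (0.831), both within class I. H2-Ab1 and Cd74 were the weakest of the 7 relations computed, with an r of 0.619 (permutation p = 0.0599) and a rho of 0.552 (permutation p = 0.105). The Pearson permutation p-values, adjusted for 7 relations by Benjamini-Hochberg, were 0.00217, 0.00483, 0.00808 and 0.0599, in the same order. Leaving out the 2 samples farthest from the median of the first gene gave r of 0.963, 0.844, 0.858 and 0.766. With genotype means removed r was 0.932, 0.818, 0.761 and 0.602, and over the 8 arrays of slide 2 it was 0.938, 0.831, 0.856 and 0.594. All values share the scaling of their array, and probes of similar sequence can share signal.

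Markers of cells that make class II were measured in the same samples. Of 12 dendritic cell markers 9 were measured, and the defining genes Xcr1, Clec9a and Cd209a were not above background in enough arrays. The mean dendritic marker level was -1.59, -1.19, -1.43, -1.72 and -1.36 in knockout replicates 1 to 5 and -1.53, -1.35, -1.37, -1.36 and -1.36 in wild type. Knockout replicate 2, the highest here, was also the highest for 4 class II genes. Knockout replicates 1 and 4 and wild-type replicate 1, the lowest here, were low in class II. Knockout replicate 3, at -1.43 here, was low in class II as well, below the mean for 6 of 8 genes. This match of samples was not tested, and the mean joins markers of unlike level. Flt3 and Itgax were each above background on only 3 knockout arrays, while Siglech ran from 4.93 to 6.79 over all samples, far above every other marker of the list. It was lowest in wild-type replicates 1 and 2 (4.93 and 5.16) and highest in knockout replicate 3 (6.79). The cardiomyocyte mean was lowest and highest in the same samples (7.80 and 7.77, and 8.73). Whether the Siglech signal comes from dendritic cells was not tested. Of the 9 markers, 5 values were below 0 and 4 above, with a median of -0.09, and 3 had an unadjusted p under 0.05 (27.2% of all genes). In limma 1 gene of the dendritic list fell, Zbtb46, by 0.61 ± 0.09 (limma adjusted p = 0.0115), and 0 rose, where 4.94% of all genes were called. Zbtb46 was highest, at -0.77, in wild-type replicate 1, a sample with a low mean dendritic level. Of 8 endothelial markers, 7 had values below 0 as well (45.9% of all genes). Which cells the Zbtb46 signal came from was not tested. The values above 0 included Ccr7 (0.39 ± 0.16), Siglech (0.47 ± 0.28) and Dpp4 (0.47 ± 0.25), none past the threshold. All 9 macrophage markers had values below 0 (45.9% of all genes), with a median of -0.34. In limma 0 passed the test and 8 had an unadjusted p under 0.05 (27.2% of all genes), led by Cd68 (-0.58 ± 0.17, adjusted p = 0.0691) and Mrc1 (-0.38 ± 0.12, adjusted p = 0.0932). Their mean level was 1.43, 1.84, 1.76, 1.43 and 1.97 in knockout replicates 1 to 5 and 1.94, 2.08, 2.00, 2.21 and 2.00 in wild type. Knockout replicates 1 and 4 were the lowest for these markers too. Of 8 B cell markers 4 were measured, 0 passed the test in limma and 1 had an unadjusted p under 0.05 (27.2% of all genes). Mean B cell marker levels were -3.31 to -2.72 in knockout and -3.56 to -2.95 in wild type. The part of these cells in the class II values was not tested.

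Genes that feed the class I and class II pathways were counted in 7 lists. In the list of interferon receptors, JAK-STAT and IRF regulators, 2 of 19 measured genes fell, 0 rose and 17 did not pass, beside 2.97% of all genes lower and 4.94% called in either direction. In this list 16 values were below 0, and 10 genes had an unadjusted p under 0.05, beside 27.2% of all genes. Socs3, a feedback inhibitor of cytokine signalling, fell by 1.41 ± 0.24 on the log2 scale (limma adjusted p = 0.0154), from 0.71 to 1.98 in wild type to -0.83 to -0.07 in knockout. Stat2, which carries the type I interferon signal, fell by 0.49 ± 0.11 (limma adjusted p = 0.0361), a call lost under 11 of 19 alternative settings, with its direction kept in all of them. Among the 15 MHC promoter factors, such as Rfx5 and the Nfy subunits, 0 passed the test in limma and 4 had an unadjusted p under 0.05, close to the 27.2% of all genes. The smallest p-values there were those of Creb1 (-0.20 ± 0.08, adjusted p = 0.129) and Crebbp (0.23 ± 0.09, adjusted p = 0.134). Of 12 peptide-loading and endoplasmic reticulum chaperone genes, 0 passed in limma, 3 had an unadjusted p under 0.05 and 10 values were below 0, led by Pdia3 (-0.77 ± 0.24, adjusted p = 0.0805) and Hspa5 (-0.38 ± 0.14, adjusted p = 0.128).

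The calls in the next 4 lists are 1 or 2 genes each, to be read against the 4.94% of all genes called. Of 17 constitutive proteasome and activator genes, 1 rose and 0 fell: Psme4, the PA200 activator, by 0.33 ± 0.08 (limma adjusted p = 0.0384), a call lost under 16 of 19 alternatives. Of 15 class II processing genes, 1 fell and 0 rose: Ctss, cathepsin S, the protease that removes the last part of the invariant chain. It read 1.98 to 2.46 in knockout and 2.59 to 3.00 in wild type, a fall of 0.62 ± 0.12 (limma adjusted p = 0.0214), lost under 7 of 19 alternatives. Of 7 measured class I-like genes outside the H2 names, 1 rose and 0 fell: Cd1d2, the near-identical neighbour of Cd1d1, by 0.38 ± 0.09 (limma adjusted p = 0.0412), lost under 16 of 19 alternatives. Of 7 measured genes listed as receptors for MHC molecules, 1 rose, Cd4 (0.62 ± 0.16, limma adjusted p = 0.0491, lost under 18 of 19 alternatives). In the same list 1 fell, Lilrb4a, an inhibitory receptor of myeloid cells (-0.77 ± 0.18, limma adjusted p = 0.0364, lost under 11 of 19). Whether Lilrb4a binds MHC molecules was not examined. Among other markers, 2 of 8 endothelial genes fell (2.97% of all genes), Kdr by 0.80 ± 0.13 (limma adjusted p = 0.0147) and Emcn by 0.41 ± 0.10 (adjusted p = 0.0433, lost under 16 of 19). The calls of Socs3, Zbtb46 and Kdr were lost under 3, 2 and 2 of 19. Of the 5 fibroblast, 8 cardiomyocyte, 6 T and NK cell and 2 thymocyte markers measured, 0 passed the test in limma. At an unadjusted p under 0.05 there were 2, 6, 1 and 0 of them, where 27.2% of all genes were. The T cell gene Cd3e differed by 0.72 ± 0.25 (adjusted p = 0.104) and the cardiomyocyte gene Tnni3 by 0.47 ± 0.13 (adjusted p = 0.0662).

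Probes of 1 gene did not always give the same value. Of 13 genes with several kept probes, the sign differed between probes for 3, H2-Q10, H2-T23 and Tapbp. H2-T23 encodes Qa-1, a ligand of an inhibitory receptor on natural killer cells. Its brightest probe gave -0.05 ± 0.15. Its other probe read -1.20, -1.15, -0.76, -1.01 and -1.33 in knockout and -1.84, -1.59, -1.27, -1.70 and -1.29 in wild type, a difference of 0.45 ± 0.14. Tested over all 30692 kept probes, of which 4.44% were called, its limma adjusted p was 0.0892. With normexp background correction, under which 14.7% of kept probes were called, it was 0.0375 and the difference 0.39. The bright H2-T23 probe also shares sequence with other class I genes: a run of 29 bases occurs in it, in the H2-L probe and in the second H2-K1 probe, and is printed because signal on these 3 probes cannot be assigned to 1 gene.
Shared run of the H2-T23, H2-L and H2-K1 probes: tggagctgtggtggcttttgtgatgaaga

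The run contains no difference between the 3 probes. Over all pairs of probes from different genes, 5 pairs shared 16 or more bases, among 6 genes, with a longest run of 31 between H2-T23 and H2-L. The values of these heavy-chain probes are therefore not independent of each other. The first H2-K1 probe, whose values were given above, is in none of these pairs. Probes were compared only with each other and not with transcripts, so this does not show that its signal comes from H2-K1 alone. The second H2-K1 probe differed by -0.09 ± 0.15.

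Low signal also set limits. The second Ciita probe was well above background on 0 knockout and 5 wild-type arrays and gave a difference of -0.71 ± 0.28, which turned to 0.16 with normexp background correction. No fold is given for it, because its wild-type mean did not exceed the background limit of the knockout arrays. H2-M11, above background on 1 knockout and 4 wild-type arrays, moved from -0.04 to 0.27 with that correction. With normexp, H2-K1 gave -0.31, H2-D1 -0.29, B2m -0.35, H2-Ab1 -0.30 and Cd74 -0.18, each further below 0 than with the software's subtraction. The 95% intervals of H2-K1 (upper end -0.03), H2-D1 (-0.04) and B2m (-0.07) then lay below 0, with limma adjusted p of 0.110, 0.0918 and 0.0738. Those of Tap2 (upper end -0.08) and H2-Q7 (-0.01) did too, with limma adjusted p of 0.0972 and 0.125. The intervals of the dim H2-Ob (0.06 to 0.53) and H2-M11 (0.04 to 0.49) lay above 0, with limma adjusted p of 0.0764 and 0.0871. With normexp 0 of the 40 genes passed the threshold, where 15.1% of all genes did.

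**Figure D4:**
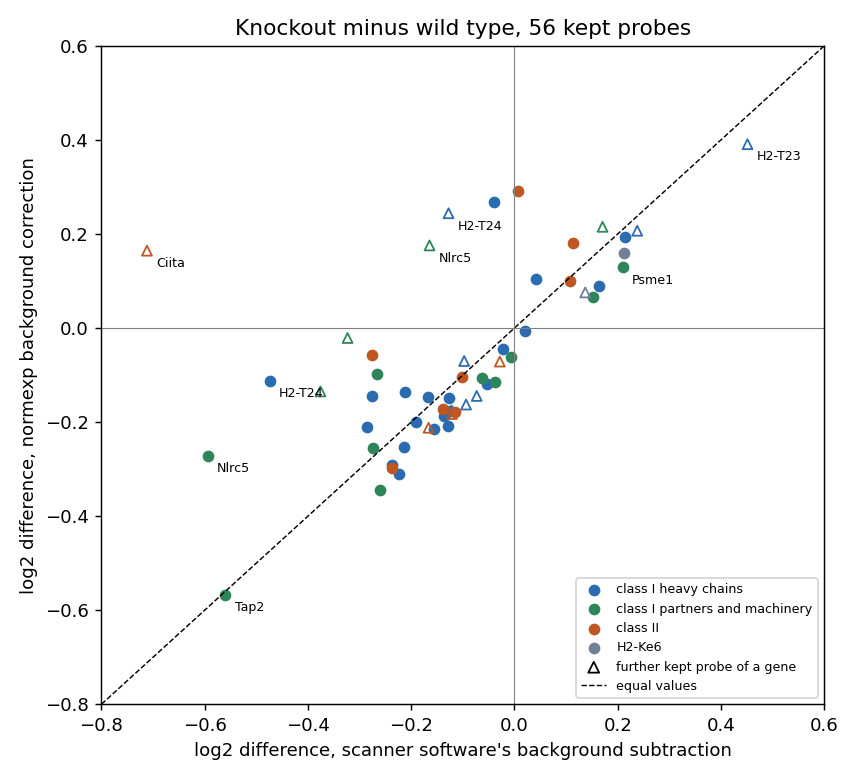
Log2 difference, knockout minus wild type, of the 56 kept probes with the scanner software's background subtraction (horizontal axis) and with normexp background correction (vertical axis); filled points represent their gene and open triangles are further probes of a gene. Most points lie near the dashed line of equal values, while the dim probes of Ciita, Nlrc5 and H2-T24 lie above it.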

How the data were processed

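The members, lists and tests were chosen with earlier results of these data known. Groups and replicate numbers come from the sample titles, and 0.2 µg of RNA was labelled per array. The deposited spot intensity was background-subtracted within each array by Agilent Feature Extraction 10.7.1.1, per the file headers and the submitters' processing notes. The authors' deposited value table is on a log2 scale and served as an alternative, and its normalization is not given in the sources used here; its columns share a median of 4.74.

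Here, log2 of the processed intensity minus that of the array's 75th percentile over 59305 non-control spots was used. Outlier spots were left out and no spot was saturated. Probes well above background on at least 4 of 5 arrays of a genotype were kept (30692 of 56605), and the brightest kept probe stood for its gene. Member names are those of the array file, and other genes were named by RefSeq accession (32994 probes). Probe positions are on mm9, whose exon and UTR annotation was not used.

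Genotypes were compared with limma 3.58.1 in R 4.3.3 (lmFit, eBayes, no covariates), with Benjamini-Hochberg adjustment over 20607 genes at 0.05. The fit was tested on simulated data. Differences within an array were tested by exact permutation (two-sided) and correlations by 100000 permutations. Named genes are 11 fixed members, the largest differences of each class, and up to 4 called or 2 uncalled genes per list; the choice of the other members named followed their values. Alternatives were normexp (offset 50), quantile normalization, no filter, averaged probes, the authors' table, slide 2 alone, slide or replicate number as a block, leaving out each array, and, chosen after seeing the data, slide and row as covariates.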

Additional observations from a re-analysis of the deposited data

Results flagged for a closer look

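Samples far from the other 4 of their genotype were looked for in the 40 measured genes, as a gap to the nearest sample above 0.71 of the group's whole range (Dixon's criterion). Of 80 groups tested, 6 had such a sample, and chance gives about 1 in 20. Wild-type replicate 1 stood apart for B2m (gap 0.734 of the range; 4.85 against at least 5.35 in the other wild-type samples) and for H2-Q5 (0.826; -1.24 against at least -0.07). Wild-type replicate 2 stood apart for H2-T10 (0.833; -0.18 against at most -0.68) and H2-T9 (0.753; 0.14 against at most -0.43). Knockout replicate 2 stood apart for H2-M11 (0.745; -3.89 against at most -4.59), and knockout replicate 3 for Erap1 (0.828; -2.25 against at least -1.78).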

How the results depend on the processing

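Over 19 alternatives, H2-K1, H2-D1, B2m, Tap1, Tap2, H2-M3, Psme1, H2-Aa, H2-Ab1, H2-Eb1, Cd74 and Ciita kept their direction and did not pass the threshold. Psmb8 ranged from -0.17 to 0.018 with 1 array left out. The count of class I genes called was 0 in limma, with 3 at an unadjusted p under 0.05, and became 1 (H2-T24) with quantile normalization and 1 with the authors' table. It ranged from 0 to 1 with 1 array left out (Nlrc5 without wild-type replicate 1); that of class II was 0 under every alternative. With 1 array left out the class I median ranged from -0.23 to -0.07 and the class II median from -0.22 to -0.03; without the filter they were -0.06 and 0.06. With slide and row as covariates, which rests on knockout replicate 1 against 3 wild-type arrays, the class I median was -0.27 and the class II median -0.40.

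Of all genes, 1017 were called, against 3111 with normexp (2233 higher and 878 lower), 173 with no filter (92 higher and 81 lower), 458 on slide 2 alone and 0 with slide and row as covariates (2788 at an unadjusted p under 0.05). Leaving out 1 array gave 282 to 940; the lower counts were 434, 368 and 469 without knockout replicates 1, 2 and 4 and 381, 304 and 282 without wild-type replicates 2, 4 and 5. The cause of these changes was not tested. With the replicate number as a block 164 genes were called, 0 of them members. Same-numbered samples correlated at -0.11 to 0.05 in their deviations over all genes. Such values cannot show whether samples were paired, and the labels do not say so. Dim probes were limited by signal over background.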
